A study of Homo sapiens with 15 samples.

Results

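The nuclear and mitochondrial respiratory chain genes are the genes whose proteins make up complexes I to V of the inner mitochondrial membrane. Members were taken by symbol: the mitochondrial-encoded MT-ND, MT-CO, MT-ATP and MT-CYB genes, and the nuclear NDUFA, NDUFB, NDUFC, NDUFS, NDUFV, SDHA to SDHD, UQCR, COX4 to COX8 and ATP5 genes. Of 123 genes that began with these letters, 97 were members among the 18858 genes tested. The others were 12 assembly factors, 10 pseudogenes, 1 pseudogene of an assembly factor and 3 antisense or divergent RNAs. The members were 13 mitochondrial-encoded and 84 nuclear genes. By symbol, complex I held 7 mitochondrial-encoded and 39 nuclear genes, complex II held 4 nuclear genes and complex III held 1 and 9. Complex IV held 3 and 14, and complex V held 2 and 18.

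The study asked how the Hippo pathway co-regulators YAP and TAZ, encoded by YAP1 and WWTR1, act on invadopodia of cancer cells. All libraries came from MDA-MB-231 breast cancer cells plated on gelatin for 5 to 6 hours and were made from polyadenylated RNA. The 5 groups of 3 libraries were untreated cells (Control), and cells 48 hours after a control siRNA pool (siControl), a pool against YAP1 (siYAP), a pool against WWTR1 (siTAZ) or both pools (siYAP+TAZ). Replicates are described as 3 independent sets, with no map from library to set, so separate cultures cannot be read from the labels. Co-knockdown cells received both pools and thus more siRNA in total, so the effect of losing both regulators and that of more siRNA cannot be told apart.

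Complexes I, III and IV pass electrons from NADH to oxygen and pump protons, complex II feeds in electrons from succinate, and complex V makes ATP from the proton gradient. The mitochondrial genome encodes core subunits of every complex but complex II, and they are transcribed together as long precursors by a dedicated polymerase. The remaining subunits come from nuclear genes spread over the chromosomes, so subunits of one complex are read from 2 genomes.

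Libraries held 18696737 counts (siTAZ 29) to 30107312 counts (siYAP 18), with a median of 22902846. Normalized counts of YAP1, the target of the siYAP pool, were 4038, 4488 and 4512 in Control 16, 21 and 26 and 4431, 4333 and 4202 in siControl 17, 22 and 27. They were 1013, 2764 and 761 in siYAP 18, 23 and 28, 4996, 4390 and 4393 in siTAZ 19, 24 and 29, and 2240, 2202 and 1796 in siYAP+TAZ 20, 25 and 30. Every library given the YAP1 pool was thus below every other library, and siYAP 23 kept the most YAP1 transcript. In siYAP against siControl the log2 fold change of YAP1 was -1.51, with an adjusted p of 0.0992 by edgeR's quasi-likelihood test with Benjamini-Hochberg adjustment (3.29e-08 to 0.374 over the alternatives). DESeq2 and limma-voom called it, and without siYAP 23 edgeR called it at a log2 fold change of -2.27. In siYAP+TAZ it was -1.06, with an adjusted p of 0.0723 by edgeR's quasi-likelihood test with Benjamini-Hochberg adjustment (2.13e-05 to 0.217 over the alternatives). It was called by DESeq2, by limma-voom and with only the groups compared.

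Normalized counts of WWTR1, the target of the siTAZ pool, were 1475, 1557 and 1830 in Control and 1995, 1850 and 1579 in siControl, in the same order of libraries. They were 1956, 1423 and 2001 in siYAP, 828, 254 and 521 in siTAZ, and 1133, 1123 and 1284 in siYAP+TAZ. Every library given the WWTR1 pool was below every other, but less so after both pools than after the WWTR1 pool alone. WWTR1 fell in siTAZ against siControl by a log2 fold change of -1.74, with an adjusted p of 0.0187 by edgeR's quasi-likelihood test with Benjamini-Hochberg adjustment (8.98e-06 to 0.172 over the alternatives). That call was lost without siControl 17, siControl 22 or siTAZ 29, without libraries 26 to 30, and when only the groups compared were fitted. In siYAP+TAZ the log2 fold change was -0.62, with an adjusted p of 0.199 by edgeR's quasi-likelihood test with Benjamini-Hochberg adjustment (0.00102 to 0.374 over the alternatives), and so depended on the fit.

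The 13 mitochondrial-encoded subunit genes took 3.24%, 3.29% and 4.47% of the counts in Control 16, 21 and 26, and 1.54%, 3.53% and 4.28% in siControl 17, 22 and 27. They took 3.28%, 3.54% and 2.18% in siYAP 18, 23 and 28, 2.08%, 2.38% and 3.46% in siTAZ 19, 24 and 29, and 2.34%, 1.38% and 4.23% in siYAP+TAZ 20, 25 and 30. The lowest share was in siYAP+TAZ 25 (95% Wilson interval 1.38% to 1.39%, counting error only) and the highest in Control 26 (4.46% to 4.47%). Groups overlapped throughout: siControl and siYAP+TAZ each held a library below and a library above most of the rest. The 84 nuclear members took 0.464%, 0.472% and 0.496% in Control, 0.502%, 0.482% and 0.506% in siControl, and 0.485%, 0.498% and 0.565% in siYAP. They took 0.476%, 0.503% and 0.521% in siTAZ and 0.484%, 0.459% and 0.506% in siYAP+TAZ. The highest share was 3.23 times the lowest for the mitochondrial-encoded members and 1.23 times the lowest for the nuclear members.

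The log2 ratio of mitochondrial-encoded to nuclear member counts was 2.80, 2.80 and 3.17 in Control, 1.62, 2.87 and 3.08 in siControl, and 2.76, 2.83 and 1.95 in siYAP. It was 2.13, 2.24 and 2.73 in siTAZ and 2.27, 1.59 and 3.06 in siYAP+TAZ. All siTAZ libraries were below all Control libraries, and every other pair of groups overlapped. Differences of group means from siControl were -0.01 in siYAP, -0.16 in siTAZ and -0.22 in siYAP+TAZ, and siControl lay -0.40 from Control. Leaving out 1 library moved them from -0.46 to 0.27, -0.61 to 0.12, -0.67 to 0.14 and -0.68 to 0.05 in turn. These comparisons share the siControl libraries. Within libraries 16 to 20, 21 to 25 and 26 to 30, each of which holds 1 library per group, siYAP+TAZ differed from siControl by 0.65, -1.28 and -0.02. For siYAP the 3 differences were 1.14, -0.04 and -1.13, and for siTAZ 0.51, -0.63 and -0.35. From Control, the 3 differences were -0.67, -0.56 and -0.44 for siTAZ, -0.53, -1.21 and -0.11 for siYAP+TAZ, -0.04, 0.03 and -1.22 for siYAP and -1.19, 0.07 and -0.09 for siControl. No knockdown differed from siControl in the same direction in all 3 runs, while siTAZ and siYAP+TAZ were below Control in each. The low values of siControl 17, siYAP 28 and siYAP+TAZ 25 came each from a different group and run. In bulk samples, fewer cells and less RNA per cell cannot be told apart, and the ratio holds nothing on mitochondrial DNA copies, which were not measured.

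**Figure D1:**
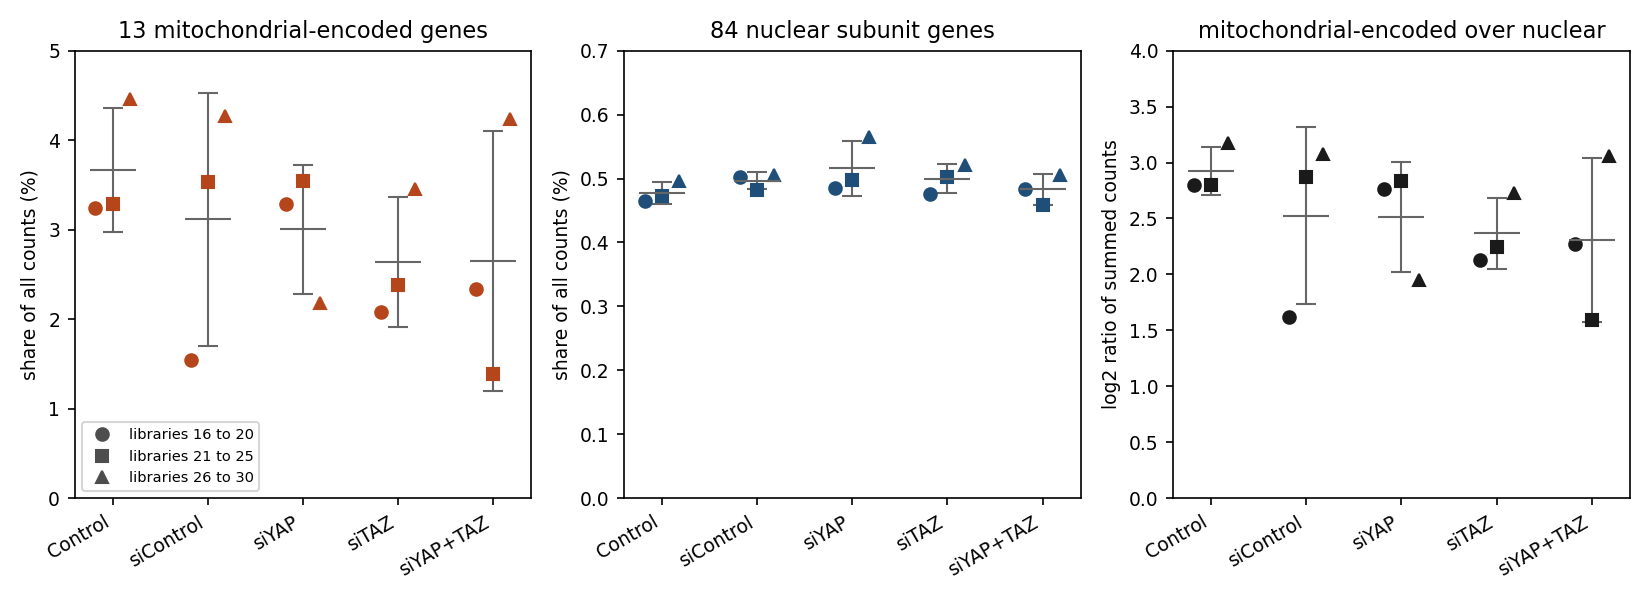
Share of counts from the 13 mitochondrial-encoded and the 84 nuclear members, and their log2 ratio, in each library.

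By complex, the log2 ratio ran from 2.14 to 3.90 across libraries for complex I, 0.37 to 1.78 for complex III, 2.98 to 4.27 for complex IV and -0.26 to 1.76 for complex V. Only in siControl 17 (-0.23) and siYAP+TAZ 25 (-0.26) did the nuclear genes of complex V take more counts than MT-ATP6 and MT-ATP8. Nuclear shares were 0.135% to 0.165% for complex I, 0.0157% to 0.018% for complex II, 0.0537% to 0.0651% for complex III, 0.0685% to 0.085% for complex IV and 0.18% to 0.232% for complex V.

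Normalized counts of other mitochondrial-encoded members in siControl 17, 22 and 27 and siYAP+TAZ 20, 25 and 30 were as follows. The complex I genes MT-ND1 had 25427, 63859 and 91260 and then 42160, 20737 and 86773, MT-ND2 had 48279, 114242 and 162013 and then 59034, 37806 and 120809, and MT-ND5 had 13319, 28264 and 26639 and then 22482, 14399 and 31885. MT-ND3 had 7874, 11133 and 12342 and then 8401, 7927 and 9646, and MT-ND4L had 5087, 12730 and 17753 and then 7922, 4568 and 15481. Of complex IV, MT-CO2 had 36773, 91385 and 105469 and then 51747, 34623 and 107468, and MT-CO3 had 48343, 85086 and 96954 and then 65747, 38803 and 96477. MT-ATP6 of complex V had 29938, 96186 and 117350 and then 45418, 25326 and 109283. The 2 groups overlapped for all 8.

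Among single mitochondrial-encoded genes, MT-ND4, a proton-pumping subunit of complex I, took the largest mean part of mitochondrial-encoded counts (15.8% to 19.7% by library), though MT-CO1 took more in siYAP+TAZ 25. Its normalized counts were 133432, 133025 and 219266 in Control, 57320, 149348 and 202206 in siControl, and 134577, 148313 and 92784 in siYAP. They were 89369, 110695 and 154647 in siTAZ and 96660, 51595 and 189370 in siYAP+TAZ. For MT-CO1, the catalytic subunit of complex IV, counts were 122955, 112788 and 135956 in Control, 56314, 106273 and 120409 in siControl, 118064, 116852 and 75734 in siYAP, 80030, 94075 and 104525 in siTAZ, and 87160, 52304 and 132210 in siYAP+TAZ. Each gene was lowest in siYAP+TAZ 25 and siControl 17. All siTAZ libraries were below all Control libraries for MT-CO1, and all other pairs of groups overlapped for both genes. For MT-CO3 and MT-ND5 all siTAZ libraries were also below all Control libraries.

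MT-CYB, cytochrome b of complex III, had normalized counts of 17813, 37973 and 45234 in siControl and 28455, 16937 and 47672 in siYAP+TAZ, which overlapped. MT-ATP8, a small complex V subunit, had 10645, 39137 and 45566 in siControl and 16217, 9551 and 36265 in siYAP+TAZ. MT-ND6, the complex I subunit read from the other strand of the mitochondrial genome, had 4621, 10254 and 7178 in siControl and 8857, 5828 and 10140 in siYAP+TAZ. In siYAP+TAZ against siControl the lowest log2 fold change was -0.62 (MT-ATP8, 95% interval -1.97 to 0.73) and the highest 0.17 (MT-ND6, -0.55 to 0.89). Leaving out 1 library moved MT-ATP8 from -1.30 (siYAP+TAZ 30) to -0.27 (siControl 27) and MT-ND6 from -0.07 (siControl 17) to 0.49 (siControl 22), and MT-ND6 was -0.06 with Control as the reference. MT-ATP8 and MT-ATP6 share bases on the same strand, so the reads of the 2 cannot be fully told apart, and the strand of counting is not stated. Same-strand overlap with any gene took 22.2% of MT-ATP8 and 6.90% of MT-ATP6.

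The median within-group standard deviation of log2 counts was 0.64 for mitochondrial-encoded members, from 0.28 (MT-ND3) to 0.78 (MT-ATP8). It was 0.13 for nuclear members, 0.21 for all genes and 0.10 for the 984 nonmembers among the 1000 most abundant genes. Mitochondrial-encoded transcripts thus varied more between replicates than other abundant transcripts did, which widened their intervals. The mix of these transcripts also differed by run of libraries: the log2 ratio of MT-ND1 to MT-CO1 was -1.33 to -0.73 in libraries 16 to 25 and -0.81 to -0.29 in libraries 26 to 30. Per kilobase of transcript, mean normalized counts were highest for MT-ATP8 (128338) and lowest for MT-ND5 (13581), with a median of 65527.

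**Figure D2:**
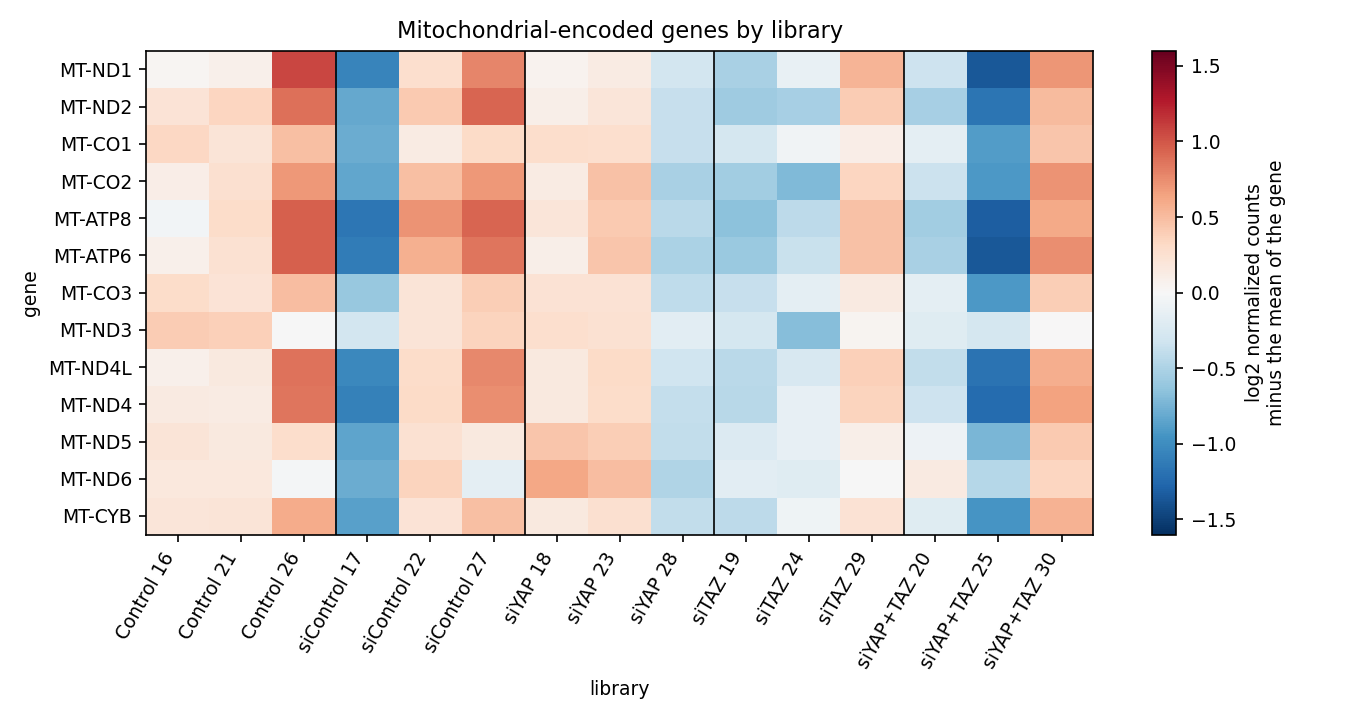
Log2 normalized counts of each mitochondrial-encoded member in each library, minus the mean of that gene over all libraries.

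In siYAP+TAZ against siControl, edgeR's quasi-likelihood test with Benjamini-Hochberg adjustment at an adjusted p of at most 0.05 called 0 of 97 members higher, against 9.97% of all genes, and 5 lower, against 8.39%. With a threshold of 1 on the absolute log2 fold change as well, edgeR called 0 members, against 3.46% of all genes. At an unadjusted p of at most 0.05 edgeR had 0 higher (15.7% of all genes) and 14 lower (14.6%). DESeq2 called 0 higher (10.6% of all genes) and 6 lower (8.74%), and limma-voom 0 higher (10.1%) and 6 lower (8.55%). With the run of libraries as a block edgeR called 14 lower, where 28.6% of all genes were called in either direction. It called 3 lower with library size only (17.7%) and 1 lower without siYAP+TAZ 20 (13.6%), siControl 22 (13.3%) or siYAP+TAZ 25 (14.1%). The median log2 fold change was -0.27 for mitochondrial-encoded members, -0.07 for nuclear members and -0.00 for all genes, and 11 of 13 and 59 of 84 were below 0. Without siYAP+TAZ 25 or siControl 27 the mitochondrial-encoded median was 0.07, without siControl 17 it was -0.60, and without siYAP+TAZ 30 it was -0.84. It was -0.47 with Control as the reference and without libraries 26 to 30. The nuclear median was -0.02 without siYAP+TAZ 25, -0.03 without siControl 27 or with library size only, -0.04 without libraries 26 to 30, and -0.01 with Control as the reference, where 44 of 84 were below 0. For nuclear members by complex the medians were -0.05 (complex I), -0.07 (II), -0.16 (III), -0.03 (IV) and -0.09 (V). All siYAP+TAZ libraries were below all siControl libraries for 15 nuclear members (17.9%) and above for 3 (3.57%), and 66 overlapped. Among all genes 18.2% were below and 18.2% above, and among those whose normalized counts averaged 20 or more 23.7% and 20.7%.

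After a single knockdown edgeR called no member in the fit without a block. With the run of libraries as a block it called NDUFAB1 and SDHD lower in siYAP, and in siTAZ NDUFAB1 lower and NDUFB5 and NDUFS8 higher, where 6.1% and 10.3% of all genes were called in siYAP and siTAZ. Without siTAZ 19 it called NDUFS8 in siTAZ, beside 4.78% of all genes. In siYAP against siControl it called 0 higher (0.477% of all genes), 0 lower (0.456%) and 0 with a change of 2-fold or more (0.0955%), with 0 higher (6.12%) and 2 lower (5.76%) at an unadjusted p of at most 0.05. DESeq2 called 0 (1.09% of all genes higher, 1.03% lower), as did limma-voom (0.414% and 0.467%). Medians were -0.12 for mitochondrial-encoded and 0.02 for nuclear members beside 0.00 for all genes, and limma-voom gave 0.03 for the mitochondrial-encoded members. Leaving out 1 library moved the mitochondrial-encoded median from -0.47 (siControl 17) to 0.23 (siControl 27). It was 0.04 with the block, 0.39 without libraries 26 to 30 and -0.32 with Control as the reference. The nuclear median in siYAP, with 23 of 84 below 0, moved to -0.04 without siYAP 28, with 57 below 0. It was 0.07 without siYAP 18, with 16 below 0, and 0.07 with Control as the reference. In siTAZ against siControl edgeR called 0 higher (1.34% of all genes), 0 lower (0.695%) and 0 with the fold change threshold (0.212%), with 3 higher (8.89%) and 2 lower (7.14%) at an unadjusted p of at most 0.05. DESeq2 called 0 (2.63% of all genes higher, 1.62% lower), as did limma-voom (1.17% and 0.711%). Medians were -0.21 for mitochondrial-encoded and -0.03 for nuclear members beside 0.00 for all genes, with 12 of 13 and 49 of 84 below 0. The mitochondrial-encoded median was -0.56 without siControl 17 and 0.03 without siControl 27, where 6 of 13 were below 0. It was -0.11 by limma-voom, -0.10 without libraries 26 to 30 and -0.45 with Control as the reference. Leaving out 1 library moved the nuclear median in siTAZ from -0.05 (siTAZ 29) to 0.02 (siControl 27, where 39 of 84 were below 0). With Control as the reference that nuclear median was 0.05, with 30 of 84 below 0. The 3 knockdown comparisons share the siControl libraries, so a chance high or low siControl value enters each.

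In siControl against Control edgeR called 0 higher, 0 lower and 0 with the fold change threshold, where 0% of all genes were called in each case. For the members edgeR, DESeq2 and limma-voom had 0 at an unadjusted p of at most 0.05 and called 0, where edgeR had 0.748% of all genes higher and 1.36% lower unadjusted. Medians were -0.23 for mitochondrial-encoded and 0.05 for nuclear members beside 0.00 for all genes, and all 13 mitochondrial-encoded members were below 0. That mitochondrial-encoded median was 0.07 without siControl 17, 0.03 without Control 26, -0.53 without siControl 27 and -0.37 without libraries 26 to 30. Leaving out 1 library moved the nuclear median from 0.01 (siControl 27, with 41 of 84 below 0) to 0.10 (Control 26, with 14 below 0).

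Between knockdowns, edgeR called 0 higher (3.43% of all genes), 1 lower (1.7%) and 0 with the fold change threshold (0.742%) in siYAP+TAZ against siYAP, with 0 higher (10.6%) and 14 lower (8.55%) at an unadjusted p of at most 0.05. DESeq2 also called 0 higher (4.3%) and 1 lower (2.56%), as did limma-voom (3.88% and 1.78%). In siYAP+TAZ against siTAZ edgeR called 0 higher (3.06%), 0 lower (2.38%) and 0 with the threshold (0.78%), with 0 higher (9.75%) and 2 lower (9.51%) unadjusted. DESeq2 called 0 (3.88% of all genes higher, 3.11% lower), as did limma-voom (3.05% and 2.26%). In siYAP against siTAZ edgeR called 0 higher (0.17%), 0 lower (0.472%) and 0 with the threshold (0.0636%), with 4 higher (5.89%) and 1 lower (7.77%) unadjusted. DESeq2 called 0 (0.663% and 1.21%), as did limma-voom (0.138% and 0.43%). With the run of libraries as a block edgeR called 9 members lower in siYAP+TAZ against siYAP, beside 14.6% of all genes in either direction. That block gave 5 lower in siYAP+TAZ against siTAZ (14.8%) and 1 lower, SDHD, in siYAP against siTAZ (7.32%). For the interaction, the part of the co-knockdown change beyond the sum of the single ones, edgeR called 0 higher (0.0106%), 0 lower (0%) and 0 with the threshold (0.0053%). Unadjusted it had 0 higher (3.11%) and 2 lower (2.74%), and DESeq2 called 0 (0.0689% and 0.0424%), as did limma-voom (0.0106% and 0%). Nuclear medians were -0.10, -0.09, 0.04 and -0.10 in these 4 comparisons in turn, beside -0.01, -0.00, 0.00 and -0.00 for all genes. Leaving out 1 library moved that of siYAP+TAZ against siYAP from -0.14 (siYAP 18) to -0.03 (siYAP 28). That of siYAP+TAZ against siTAZ moved from -0.14 (siTAZ 19) to -0.02 (siYAP+TAZ 25). For siYAP against siTAZ it ran from -0.03 (siYAP 28) to 0.08 (siYAP 18), and for the interaction from -0.15 (siControl 27) to -0.03 (siYAP 28).

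Mitochondrial-encoded medians between knockdowns were -0.19 in siYAP+TAZ against siYAP, with all 13 members below 0, and -0.03 in siYAP+TAZ against siTAZ, with 9 below 0. They were 0.16 in siYAP against siTAZ, with 1 below 0, and 0.05 for the interaction, with 4 below 0. Leaving out 1 library moved them from -0.69 (siYAP+TAZ 30) to 0.09 (siYAP+TAZ 25), from -0.45 (siYAP+TAZ 30) to 0.26 (siYAP+TAZ 25), from 0.01 (siTAZ 19) to 0.41 (siTAZ 29) and from -0.46 (siYAP+TAZ 30) to 0.38 (siControl 17) in turn. Without libraries 26 to 30 they were -0.85, -0.28, 0.60 and -0.72. In siYAP against siTAZ the median was 0.30 with the block. In siYAP+TAZ against siTAZ it was -0.12 by limma-voom, and for the interaction -0.16 by limma-voom and -0.11 with the block, with 10 of 13 below 0 in each of the 3 fits.

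**Figure D3:**
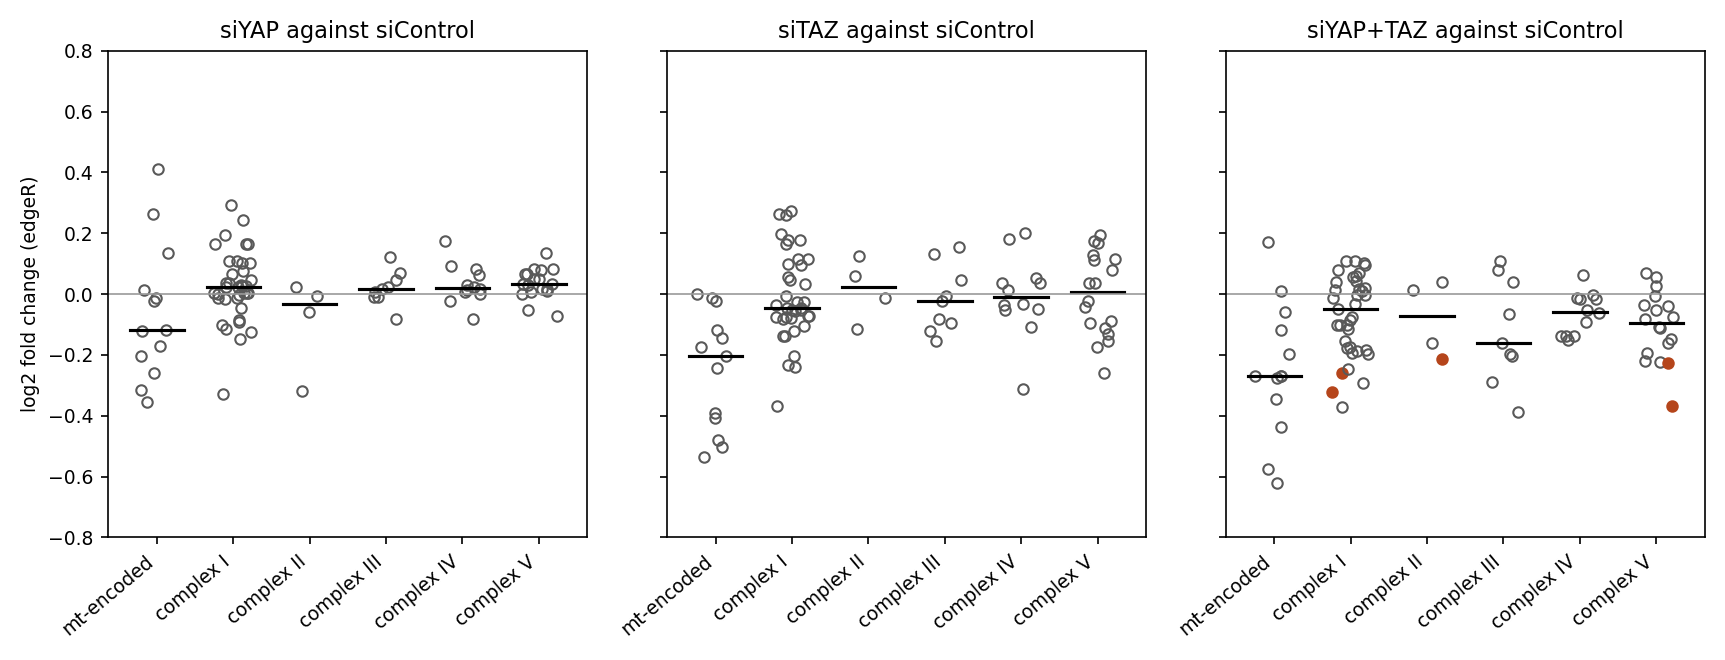
Log2 fold changes of mitochondrial-encoded and nuclear members in siYAP, siTAZ and siYAP+TAZ against siControl, for members whose normalized counts averaged 20 or more.

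The 5 members called lower in siYAP+TAZ against siControl were nuclear and belonged to complexes I, II and V. With Control as the reference 5 members were also called lower, beside 19.4% of all genes called in either direction. There UQCRHL of complex III and NDUFB9 of complex I took the place of NDUFAB1 and SDHB. ATP5MC1 on chromosome 17 encodes subunit c of the rotor ring of complex V. Its normalized counts were 1655, 1715 and 1721 in Control, 1784, 1602 and 1861 in siControl, 1648, 1563 and 1850 in siYAP, 1581, 1497 and 1636 in siTAZ, and 1454, 1246 and 1365 in siYAP+TAZ. Every siYAP+TAZ library was below every other library, and the single knockdowns overlapped with siControl. ATP5MC1 fell by a log2 fold change of -0.37 (95% interval -0.54 to -0.20), with an adjusted p of 0.00353 by edgeR's quasi-likelihood test with Benjamini-Hochberg adjustment (5.7e-05 to 0.0299 over the alternatives), and was called under every alternative. Against siYAP it fell by -0.32, with an adjusted p of 0.0289 by edgeR's quasi-likelihood test with Benjamini-Hochberg adjustment (0.001 to 0.135 over the alternatives). That call was lost without siYAP 18, siYAP 28, siYAP+TAZ 25 or siYAP+TAZ 30, without libraries 26 to 30, and with only the groups compared.

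NDUFAB1 on chromosome 16 encodes the mitochondrial acyl carrier protein, which is also a complex I subunit. Its normalized counts were 863, 912 and 1077 in Control, 1018, 955 and 1019 in siControl, 714, 848 and 821 in siYAP, 834, 755 and 950 in siTAZ, and 817, 727 and 851 in siYAP+TAZ. The siYAP, siTAZ and siYAP+TAZ libraries were all below all siControl libraries and overlapped with each other. With the run of libraries as a block NDUFAB1 was also called lower in siYAP and in siTAZ. NDUFAB1 fell by -0.32, with an adjusted p of 0.0339 by edgeR's quasi-likelihood test with Benjamini-Hochberg adjustment (0.00201 to 0.152 over the alternatives). The call was lost without siControl 17, 22 or 27, without siYAP+TAZ 20 or 25, and with Control as the reference.

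NDUFV1 on chromosome 11 encodes the NADH-binding subunit of complex I. Its normalized counts were 3264, 3429 and 3705 in Control, 3241, 3443 and 3808 in siControl, 3170, 3111 and 3559 in siYAP, 3208, 3161 and 3555 in siTAZ, and 2803, 2809 and 3151 in siYAP+TAZ. Each siYAP+TAZ library was below each siControl library, and siYAP+TAZ 30 overlapped with siYAP. NDUFV1 fell by -0.26, with an adjusted p of 0.0343 by edgeR's quasi-likelihood test with Benjamini-Hochberg adjustment (0.000549 to 0.158 over the alternatives). Leaving out siControl 22, siControl 27, siYAP+TAZ 20 or siYAP+TAZ 25 ended the call.

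ATP5MPL on chromosome 14 encodes a small membrane subunit of complex V. Its normalized counts were 745, 824 and 805 in Control, 741, 726 and 780 in siControl, 733, 727 and 801 in siYAP, 678, 635 and 679 in siTAZ, and 674, 613 and 633 in siYAP+TAZ. Libraries of siTAZ and siYAP+TAZ were all below siControl and overlapped with each other. ATP5MPL fell by -0.23, with an adjusted p of 0.0463 by edgeR's quasi-likelihood test with Benjamini-Hochberg adjustment (0.00859 to 0.196 over the alternatives). The call was lost without any 1 of siControl 17, 22 or 27 and siYAP+TAZ 20, 25 or 30, without libraries 26 to 30, with DESeq2 size factors, with library size only, and with only the groups compared.

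SDHB on chromosome 1 encodes the iron-sulfur subunit of complex II. Its normalized counts were 1631, 1687 and 1824 in Control, 1954, 1896 and 1781 in siControl, 1758, 1757 and 1891 in siYAP, 1745, 1689 and 1771 in siTAZ, and 1640, 1587 and 1628 in siYAP+TAZ. All siTAZ and siYAP+TAZ libraries were below siControl, but siYAP+TAZ 20 was above Control 16. SDHB fell by -0.21, with an adjusted p of 0.0302 by edgeR's quasi-likelihood test with Benjamini-Hochberg adjustment (0.00896 to 0.436 over the alternatives). With Control as the reference its log2 fold change was -0.08 and it was not called. It was also not called without siControl 17, siControl 22, siYAP+TAZ 20, siYAP+TAZ 25 or siYAP+TAZ 30, or with library size only.

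**Figure D4:**
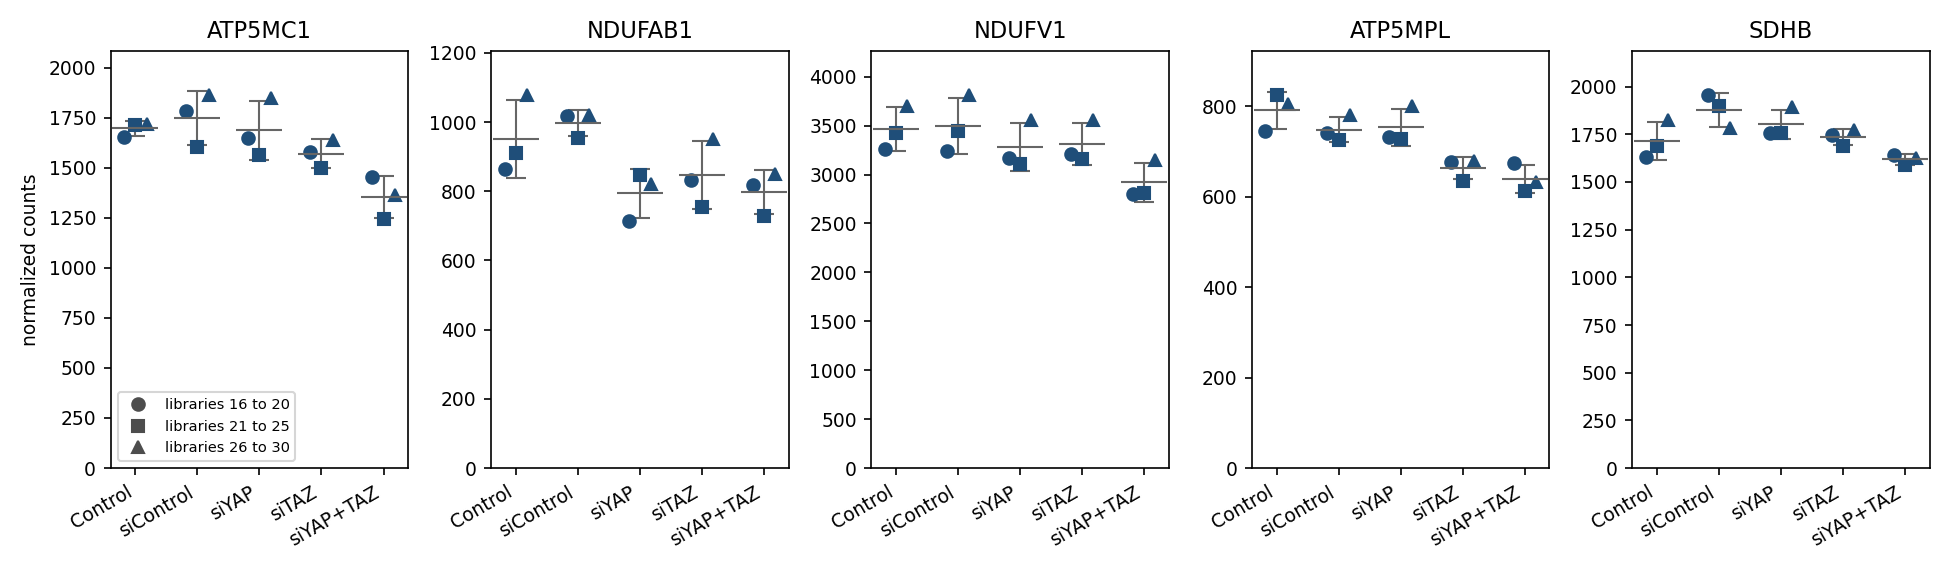
Normalized counts of the 5 members called lower after co-knockdown, in each library.

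YAP and TAZ act through TEAD factors, so promoters of nuclear members, from 250 bases before to 50 after the start, were searched for short motifs on either strand. The TEAD motif CATTCC was in 14.0% of 35116 promoters and in 6 of the 68 nuclear members matched by symbol (8.82%), and in 0 of the 5 genes called lower. The ETS motif CCGGAAG was in 10.3% of all and in 20 members (29.4%), and the NRF1 motif in 8.32% of all and in 17 members (25.0%). Among the 5, SDHB held the ETS motif and ATP5MPL the NRF1 motif, and a motif match does not measure binding. Bases further from the start were not searched. With the TEAD motif in 14.0% of promoters, 5 genes are too few for a count of 0 to differ from that share. Whether TEAD factors act on these genes was not tested. The promoters of these 2 genes and of ATP5MC1, the gene called under every alternative, are shown because they differ in these motifs, which stand in capitals (RefSeq GRCh38.p14). They lie at chr17:48892537-48892836 on the plus strand (ATP5MC1), chr14:103921480-103921779 on the minus strand (ATP5MPL) and chr1:17053983-17054282 on the minus strand (SDHB).
ATP5MC1: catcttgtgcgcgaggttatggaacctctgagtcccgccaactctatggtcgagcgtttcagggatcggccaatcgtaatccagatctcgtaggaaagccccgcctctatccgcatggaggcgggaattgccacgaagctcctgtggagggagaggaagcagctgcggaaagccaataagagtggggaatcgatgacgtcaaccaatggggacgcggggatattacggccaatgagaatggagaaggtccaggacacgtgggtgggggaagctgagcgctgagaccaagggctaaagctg
ATP5MPL: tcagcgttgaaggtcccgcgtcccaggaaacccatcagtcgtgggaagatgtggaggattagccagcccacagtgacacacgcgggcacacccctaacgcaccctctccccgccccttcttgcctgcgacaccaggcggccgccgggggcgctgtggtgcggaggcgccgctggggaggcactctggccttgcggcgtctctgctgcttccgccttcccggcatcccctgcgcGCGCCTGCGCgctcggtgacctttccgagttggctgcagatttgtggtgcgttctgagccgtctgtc
SDHB: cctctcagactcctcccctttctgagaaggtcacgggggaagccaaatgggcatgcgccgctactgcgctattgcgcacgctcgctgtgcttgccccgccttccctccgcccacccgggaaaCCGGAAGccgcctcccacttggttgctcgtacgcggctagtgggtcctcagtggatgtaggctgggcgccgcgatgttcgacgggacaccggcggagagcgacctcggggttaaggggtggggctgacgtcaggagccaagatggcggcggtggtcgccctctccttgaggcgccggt

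In complex I, NDUFS8, an iron-sulfur subunit, was the most abundant nuclear member per kilobase of transcript (3928). Its normalized counts were 2445, 2703 and 2858 in Control, 2603, 2648 and 2871 in siControl, 2786, 2688 and 3247 in siYAP, 2905, 3673 and 3246 in siTAZ, and 3067, 2690 and 2992 in siYAP+TAZ. The siTAZ libraries were all above siControl, with a log2 fold change of 0.27 and an adjusted p of 0.138 by edgeR's quasi-likelihood test with Benjamini-Hochberg adjustment (0.017 to 0.588 over the alternatives). It was called without siTAZ 19 and with the run of libraries as a block. NDUFA10, an accessory subunit chosen after its values were seen, had 1453, 1516 and 1402 in siControl and 1317, 1189 and 1316 in siYAP+TAZ. It was not called by edgeR but was by DESeq2, by limma-voom, after filterByExpr, with the block and without libraries 26 to 30.

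In complex II, SDHD, a membrane anchor, had normalized counts of 862, 841 and 948 in Control, 987, 873 and 1093 in siControl, 732, 844 and 790 in siYAP, 902, 1136 and 1040 in siTAZ, and 866, 762 and 1012 in siYAP+TAZ. All siYAP libraries were below all siControl libraries, with a log2 fold change of -0.32 and an adjusted p of 0.211 by edgeR's quasi-likelihood test with Benjamini-Hochberg adjustment (0.0309 to 0.597 over the alternatives), called only with the run of libraries as a block. SDHA, the flavoprotein, had 429, 415 and 504 in siControl and 482, 422 and 457 in siYAP+TAZ, and SDHC, the other anchor, had 869, 864 and 932 and then 906, 870 and 961. SDHA and SDHC overlapped between the 2 groups, so of the 4 complex II genes only SDHB was called.

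In complex III, UQCRH, the hinge protein, chosen after its values were seen, had normalized counts of 1467, 1536 and 1678 in siControl and 1277, 1133 and 1420 in siYAP+TAZ, which did not overlap. It was called only with the block, with only the groups compared, and without siYAP+TAZ 30 or libraries 26 to 30. UQCRC1, a core protein and the most abundant nuclear complex III member per kilobase (3100), had 4911, 4597 and 4875 in siControl and 5222, 4958 and 5325 in siYAP+TAZ, all above siControl but not called. In complex IV, COX7A2, the most abundant nuclear member per kilobase, had 2044, 1938 and 2353 in siControl and 1746, 1750 and 2254 in siYAP+TAZ, which overlapped. COX4I1, the regulatory subunit, had 3582, 3404 and 3384 in siControl and 3081, 3179 and 3158 in siYAP+TAZ, which did not overlap, and it was not called. In complex V, ATP5F1B, the catalytic beta subunit, was the most abundant nuclear member per kilobase (7837). It had 14877, 14697 and 14119 in siControl and 13077, 12812 and 13194 in siYAP+TAZ, which did not overlap, and it was called only with the run of libraries as a block.

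ATP5IF1, which inhibits ATP hydrolysis by complex V, had normalized counts of 1442, 1631 and 1899 in Control, 1699, 1763 and 1811 in siControl, 1718, 1783 and 2085 in siYAP, 1705, 2003 and 1997 in siTAZ, and 1727, 1795 and 2005 in siYAP+TAZ. All groups overlapped, and no alternative called it.

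Tissue-restricted isoforms were low beside their widely expressed partners. Mean normalized counts per kilobase were 4.02 for NDUFA4L2 and 616 for NDUFA4, 1.58 for COX6B2 and 3680 for COX6B1, 14.0 for COX7A1 and 4428 for COX7A2, and 54.7 for COX7B2 and 366 for COX7B. NDUFA4 was counted with complex I by its symbol, though its protein is now placed in complex IV. COX4I2, COX6A2 and COX8C had no entry in the table used here, beside 4332 per kilobase for COX4I1, 2049 for COX6A1 and 4358 for COX8A. Per-kilobase values depend on the transcript whose length was used, and the median of nuclear members was 888.

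Some members share sequence with other annotated transcripts, so their counts are uncertain. For nuclear members with much sharing these were mostly transcripts that overlap them at the same place and strand. The share of 50-base stretches also found in another transcript was 89.4% for NDUFV2, 82.4% for NDUFA13, 75.9% for NDUFA7, 73.6% for SDHA and 73.0% for NDUFB8, where exons overlapped on the same strand by 90.0%, 83.9%, 77.9%, 69.4% and 72.0% in turn. The 7 nuclear members above 60% had a median mean normalized count of 141, against 1094 in the other 77. UQCRH and UQCRHL, which lie apart on chromosome 1, shared 33.4% and 53.7% of their stretches. Of the 5 genes called lower, ATP5MC1 shared 2.01% and NDUFAB1, NDUFV1, ATP5MPL and SDHB shared 0%. MT-CO1 shared 49.5% and MT-ATP6 46.7%, and the 11 nuclear copies of mitochondrial genes took 0.0369% (siYAP+TAZ 25) to 0.155% (Control 26) of counts, in the libraries with the lowest and highest mitochondrial-encoded share. On the nuclear genome 19 members overlapped another gene on the same strand, 13 of them by more than 20%, and 23 overlapped a gene on the opposite strand, 6 of them by more than 20%.

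**Figure D5:**
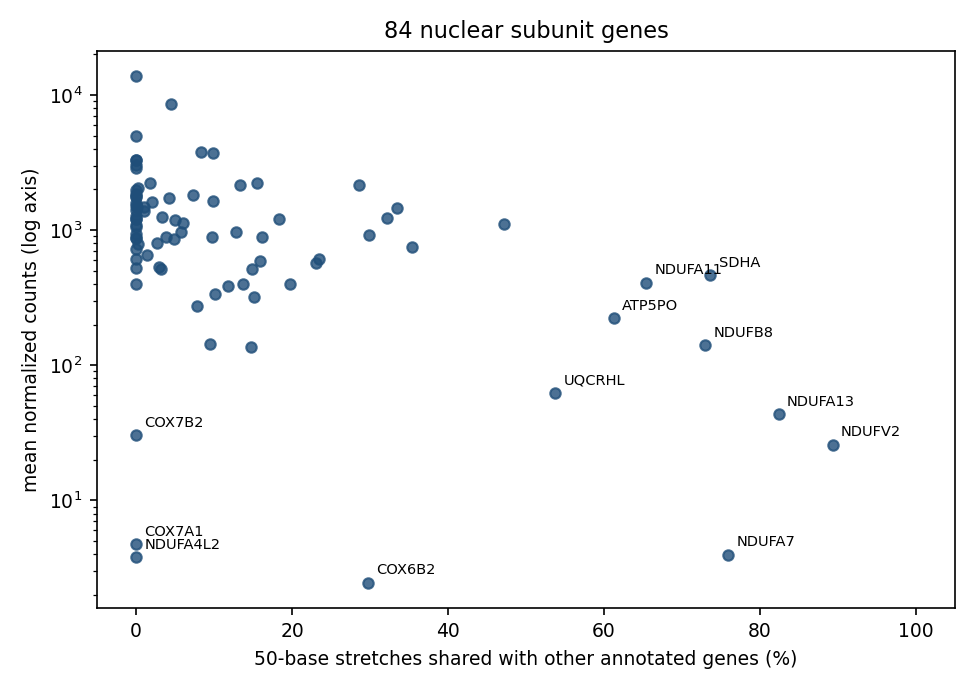
Share of 50-base stretches of each nuclear member found in other transcripts, beside its mean normalized count.

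Genes that serve the chain were read from 6 lists. Of 33 genes for mitochondrial DNA transcription and RNA handling, edgeR called 13 lower and 0 higher in siYAP+TAZ against siControl, beside 8.39% and 9.97% of all genes. Of the 33, 9 to 12 were called lower when 1 library was left out, where 13.3% to 15.5% of all genes were called in either direction. The median log2 fold change of the 33 was -0.22 beside -0.00 for all genes. PNPT1, a mitochondrial RNA-degrading enzyme, had normalized counts of 1841, 1920 and 2045 in siControl and 1316, 1244 and 1561 in siYAP+TAZ, and TWNK, the mitochondrial DNA helicase, had 1517, 1551 and 1452 and then 1078, 1238 and 959. Neither overlapped, and PNPT1 fell by -0.49 and TWNK by -0.47, with adjusted p values of 0.00182 and 0.00446 by edgeR's quasi-likelihood test with Benjamini-Hochberg adjustment (6.68e-07 to 0.0168 and 9.09e-05 to 0.0308 over the alternatives). TFAM, which packages mitochondrial DNA and takes part in starting its transcription, and LRPPRC, which stabilizes mitochondrial transcripts, were chosen after their values were seen. TFAM had 2507, 2624 and 2520 in siControl and 1769, 1969 and 2176 in siYAP+TAZ, and LRPPRC had 6150, 6252 and 6359 and then 4513, 5148 and 5417. Both fell, by -0.37 and -0.32. Whether these changes and the mitochondrial-encoded levels are linked was not tested.

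Of 54 assembly factors, 10 were called lower and 1 higher in siYAP+TAZ against siControl, beside 8.39% and 9.97% of all genes, with a median of -0.13. The number called lower was 5 with library size only, where 17.7% of all genes were called in either direction. It was 6 without siControl 17 (13.4%), 5 without siControl 22 (13.3%), 4 without siYAP+TAZ 25 (14.1%) and 5 without siYAP+TAZ 30 (15.5%). It was 14 with the block, where 28.6% of all genes were called in either direction. NDUFAF2, which helps assemble complex I, had normalized counts of 826, 913 and 915 in siControl and 581, 641 and 684 in siYAP+TAZ, and COA7, which helps assemble complex IV, had 1597, 1562 and 1557 and then 1095, 1298 and 1170. Neither overlapped, and NDUFAF2 fell by -0.48 and COA7 by -0.40, with adjusted p values of 0.00275 and 0.000806 by edgeR's quasi-likelihood test with Benjamini-Hochberg adjustment (1.37e-05 to 0.0336 and 9.94e-06 to 0.00735 over the alternatives).

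Of 8 electron carrier and complex III genes outside the member rule 1 was called lower and 0 higher, beside 8.39% and 9.97% of all genes, with a median of -0.13. The number called lower was 2 with the run of libraries as a block, where 28.6% of all genes were called in either direction, against 18.4% in the main fit. It was also 2 with only the groups compared (19.1%), with Control as the reference (19.4%) and without libraries 26 to 30 (19.9%). CYC1, the cytochrome c1 of complex III, had normalized counts of 8727, 8042 and 8541 in siControl and 7195, 6727 and 6998 in siYAP+TAZ, which did not overlap. It fell by -0.27, with an adjusted p of 0.00873 by edgeR's quasi-likelihood test with Benjamini-Hochberg adjustment (0.000465 to 0.0517 over the alternatives), and was not called without siControl 17. Of 13 ubiquinone genes 1 was called higher and 1 lower, beside the same 9.97% and 8.39%, with a median of -0.01. COQ8B, a kinase-like protein of ubiquinone synthesis, had 428, 409 and 407 in siControl and 579, 535 and 633 in siYAP+TAZ, and PDSS1, which makes the ubiquinone tail, had 687, 769 and 787 and then 559, 556 and 586. COQ8B rose by 0.49 and PDSS1 fell by -0.40, with adjusted p values of 0.000845 and 0.00202 by edgeR's quasi-likelihood test with Benjamini-Hochberg adjustment (8.3e-06 to 0.00634 and 0.000122 to 0.0124 over the alternatives).

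Of 17 regulators of mitochondrial biogenesis in the table, from 18 listed, 2 were called higher and 3 lower, beside 9.97% and 8.39% of all genes, with a median of -0.04. PPARGC1A, a coactivator of respiratory genes, had low normalized counts of 35, 28 and 28 in siControl and 58, 62 and 72 in siYAP+TAZ, and rose by 1.09, with an adjusted p of 0.00566 by edgeR's quasi-likelihood test with Benjamini-Hochberg adjustment (0.000483 to 0.0292 over the alternatives). The related coactivator PPARGC1B, chosen after its values were seen, had 191, 232 and 204 in siControl and 134, 118 and 142 in siYAP+TAZ, which did not overlap, and fell by -0.66. Of 17 genes of the tricarboxylic acid cycle 1 was called higher and 2 lower, beside 9.97% and 8.39% of all genes, with a median of -0.10. The number called lower was 7 with the block, where 28.6% of all genes were called in either direction. It was 3 without siYAP+TAZ 30 (15.5%) or libraries 26 to 30 (19.9%). It was 1 with DESeq2 size factors (18.3%), library size only (17.7%) or Control as the reference (19.4%). Leaving out siControl 17 (13.4%), siControl 22 (13.3%) or siYAP+TAZ 20 (13.6%) also gave 1. FH, which hydrates fumarate made by complex II, had 2189, 2181 and 2227 in siControl and 1658, 1623 and 1879 in siYAP+TAZ, which did not overlap. FH fell by -0.35, with an adjusted p of 0.00321 by edgeR's quasi-likelihood test with Benjamini-Hochberg adjustment (2.54e-05 to 0.0246 over the alternatives). OGDH, of the 2-oxoglutarate dehydrogenase complex, had 6202, 5966 and 6267 in siControl and 7144, 7237 and 6855 in siYAP+TAZ, again without overlap. OGDH rose by 0.20, with an adjusted p of 0.0277 by edgeR's quasi-likelihood test with Benjamini-Hochberg adjustment (0.00193 to 0.113 over the alternatives), and was not called without siControl 17, siControl 22, siYAP+TAZ 20 or siYAP+TAZ 25.

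In siYAP against siControl edgeR called 0 genes of every list, beside 0.477% of all genes higher and 0.456% lower. DESeq2 (1.09% of all genes higher, 1.03% lower) and limma-voom (0.414% and 0.467%) called 0 as well. In siTAZ against siControl, where 1.34% of all genes were called higher and 0.695% lower, edgeR called 1 assembly factor of 54, SCO1, which delivers copper to complex IV and was chosen after its values were seen. SCO1 had normalized counts of 1566, 1594 and 1607 in siControl and 1339, 846 and 1198 in siTAZ, which did not overlap, and it fell by -0.49. Of the genes for mitochondrial DNA transcription and RNA handling, 0 were called in siTAZ by edgeR, with 12 lower at an unadjusted p of at most 0.05 (7.14% of all genes) and a median of -0.15. Of these genes DESeq2 called 2 lower, beside 1.62% of all genes, and limma-voom 1 lower, beside 0.711%. PNPT1 was called lower in siTAZ with the block and without libraries 26 to 30, and TWNK with the block, with Control as the reference and without siTAZ 19. With the block COA7 was also called lower and COQ8B higher in siTAZ, the latter by DESeq2 too, and PNPT1 was called lower in siYAP.

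Markers of the cell line were read as a check on cell content. All 5 genes of the MDA-MB-231 list were in the table, with summed normalized counts of 115626 to 146824 and AXL the most abundant by its mean over libraries, though MSN was above AXL in all siYAP+TAZ libraries and in siTAZ 19. Of 8 luminal breast genes 6 were in the table, with sums of 27384 to 36255 and KRT8 the most abundant. KRT18 had 4893 to 6836, GATA3 424 to 680 and EPCAM 244 to 407, while FOXA1 had 0 to 5.1 and PGR 0 to 8.32. Of 7 immune and endothelial genes 2 were in the table, with sums of 126 to 210 and KDR the most abundant, and PTPRC had 0 to 5.1. No marker list of another line was compared. Of the first list edgeR called AXL (-0.51) and CAV1 (-0.35) lower in siYAP+TAZ against siControl, beside 8.39% of all genes. The other 3, CD44 (0.14), MSN (0.11) and VIM (0.10), were not called.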

How the data were processed

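The deposited table of counts, which the authors made with UTAP (cutadapt trimming, STAR 2.4.2a alignment to GRCh38 with GENCODE 34 and STAR counting), gave raw counts for 15 libraries of polyadenylated RNA. Strand of counting is not stated. The table's 30 other per-sample columns (normalized and rlog signal) and its comparison columns (DESeq2 log2 fold change, p and adjusted p) were not used here. Depth was 18696737 to 30107312 counts. The 18858 genes were fitted in R 4.3.3 with edgeR 4.0.16 (TMM, robust quasi-likelihood, 1 coefficient per group), and p values were adjusted by Benjamini-Hochberg over all of them. Calls had an adjusted p of at most 0.05. Alternatives were DESeq2 1.42.0, limma-voom 3.58.1, other scaling and filters, a block for the run of library numbers, only the groups compared, Control as the reference and leaving out each library. Leaving out libraries 26 to 30 was added after seeing the data. Members and lists were chosen with earlier results of these data known. Genes named were the targets, the mitochondrial-encoded, SDH and isoform genes, ATP5IF1, the called nuclear members, the most abundant member of each complex, and from each list called genes past 2-fold or else the 2 largest called changes.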

Additional observations from a re-analysis of the deposited data

How the results depend on the processing

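With the run of library numbers as a block, edgeR called 2 members in siYAP against siControl, 3 in siTAZ against siControl, 14 in siYAP+TAZ against siControl, 9 in siYAP+TAZ against siYAP, 5 in siYAP+TAZ against siTAZ and 1 in siYAP against siTAZ. Of all genes, that block called 6.1%, 10.3%, 28.6%, 14.6%, 14.8% and 7.32% in turn. In siYAP+TAZ against siControl 3 members were called with library size only, beside 17.7% of all genes, and 9 without libraries 26 to 30, beside 19.9%. In siYAP+TAZ against siYAP 0 were called with only the groups compared, beside 3.97% of all genes.

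Leaving out 1 library gave 1 to 5 members in siYAP+TAZ against siControl, where all 15 libraries gave 5 beside 18.4% of all genes. It gave 1 without siYAP+TAZ 20 (13.6% of all genes), siControl 22 (13.3%) or siYAP+TAZ 25 (14.1%), 2 without siControl 17 (13.4%) or siControl 27 (14.7%), and 5 without siYAP+TAZ 30 (15.5%). It gave 0 to 1 in siTAZ against siControl (NDUFS8 without siTAZ 19, beside 4.78%) and in siYAP against siTAZ (SDHD without siTAZ 19, beside 2.21%). It also gave 0 to 1 in siYAP+TAZ against siYAP, with 0 without siYAP 18 (2.12%), siYAP 28 (3.6%), siYAP+TAZ 25 (2.66%) or siYAP+TAZ 30 (3.57%), where all libraries gave 1 beside 5.13%.

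Within libraries 16 to 20, 21 to 25 and 26 to 30 in turn, the log2 ratio of mitochondrial-encoded to nuclear counts differed by 1.14, -0.04 and -1.13 between siYAP and siControl, and by 0.51, -0.63 and -0.35 between siTAZ and siControl. It differed by 0.65, -1.28 and -0.02 between siYAP+TAZ and siControl, and by -1.19, 0.07 and -0.09 between siControl and Control. Differences were -0.49, -1.24 and 1.11 between siYAP+TAZ and siYAP, 0.14, -0.65 and 0.33 between siYAP+TAZ and siTAZ, and 0.63, 0.59 and -0.78 between siYAP and siTAZ.

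The mitochondrial-encoded share differed in the same runs by 1.74, 0.0094 and -2.10 percentage points between siYAP and siControl, and by 0.541, -1.16 and -0.817 between siTAZ and siControl. It differed by 0.797, -2.15 and -0.0431 between siYAP+TAZ and siControl, and by -1.70, 0.243 and -0.19 between siControl and Control. Differences were -0.948, -2.16 and 2.05 between siYAP+TAZ and siYAP, 0.255, -0.998 and 0.774 between siYAP+TAZ and siTAZ, and 1.20, 1.16 and -1.28 between siYAP and siTAZ.

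With 3 libraries per group, no map of libraries to culture sets and a wide spread of mitochondrial-encoded counts, small changes of these genes are beyond what these libraries resolve.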
